A study of Mus musculus with 8 samples.

Results

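The transcription factors that pattern the hypothalamus and set the identity of its neurons were examined in the hypothalamus (HT) of 8 adult male C3H/HeN mice. The set held 34 genes of the 34797 gene names on the array, and its members were chosen by name, as the probes other than controls that carry the symbol of a member. In the maternal separation (MS) group, the 4 mice had been separated from their dams from postnatal day 2 to 14 while the dams received unpredictable stress, and the 4 control mice had stayed undisturbed with the dams. All mice were weaned on postnatal day 21, had performed the operant task for palatable food and were fasted before sacrifice. Each mouse had 1 array. Mice are named by group and by their number in the labels: MS 5.3, 7.1, 7.2 and 7.6, and control 6.2, 8.2, 8.4 and 8.5.

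The hypothalamus is built from progenitor domains that are marked by homeodomain factors. Nkx2-1 defines most of the basal hypothalamus, Six3 and Vax1 act in its anterior part and in the optic region, and Otp and Sim1 are needed for the neuroendocrine neurons of the paraventricular and supraoptic nuclei. Many of these factors remain expressed in mature neurons and serve as labels of nuclei, so that their level in a dissected piece of tissue also depends on which nuclei it contains. In such whole tissue, fewer cells of a type and less RNA per cell cannot be told apart.

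Values are log2 signals, the log2 processed intensity of a probe minus the 75th percentile of its array, so that 0 is the level of a probe at that percentile. Probes differ in how strongly they bind, so levels are compared between mice and not between probes. The 75th percentile lay at an intensity between 499 and 902 in MS mice and between 751 and 856 in control mice, with MS 7.6 the dimmest array. Between 34079 and 38724 probes were well above background in MS mice, against 34948 to 39601 in control mice, and the arrays correlated with each other at r between 0.9901 and 0.9966 over the 37314 tested probes. All 8 of 8 listed hypothalamic markers were measured, and their summed signal was 293 to 472 times the 75th percentile in MS mice and 348 to 460 times in control mice. The 4 pituitary markers summed to 293 in control 6.2, against 20.7 to 33 in MS mice and 18.4 to 34.8 in the other control mice. The arrays lay in 2 rows of 1 slide, with 2 mice of each group in each row.

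Nearly all members were measurable in the adult HT. The 34 genes had 48 probes, of which 40 were well above background on all 8 arrays and 43 on at least 4, the minimum for the test. By gene, 33 members were tested, and 31 of them had a probe above background on all 8 arrays. Otp reached this on 4 arrays and Sp9 on 5. Lhx8, a LIM homeodomain factor of basal forebrain cholinergic neurons, was above background on only 2 arrays, both of control mice, and was not tested. A further 3 probes were above background on no array, and Dlx1, Lhx6 and Six3, to which they belong, each had another probe that was measured. Where a gene had several tested probes, the one with the highest mean stands for it.

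**Figure D1:**
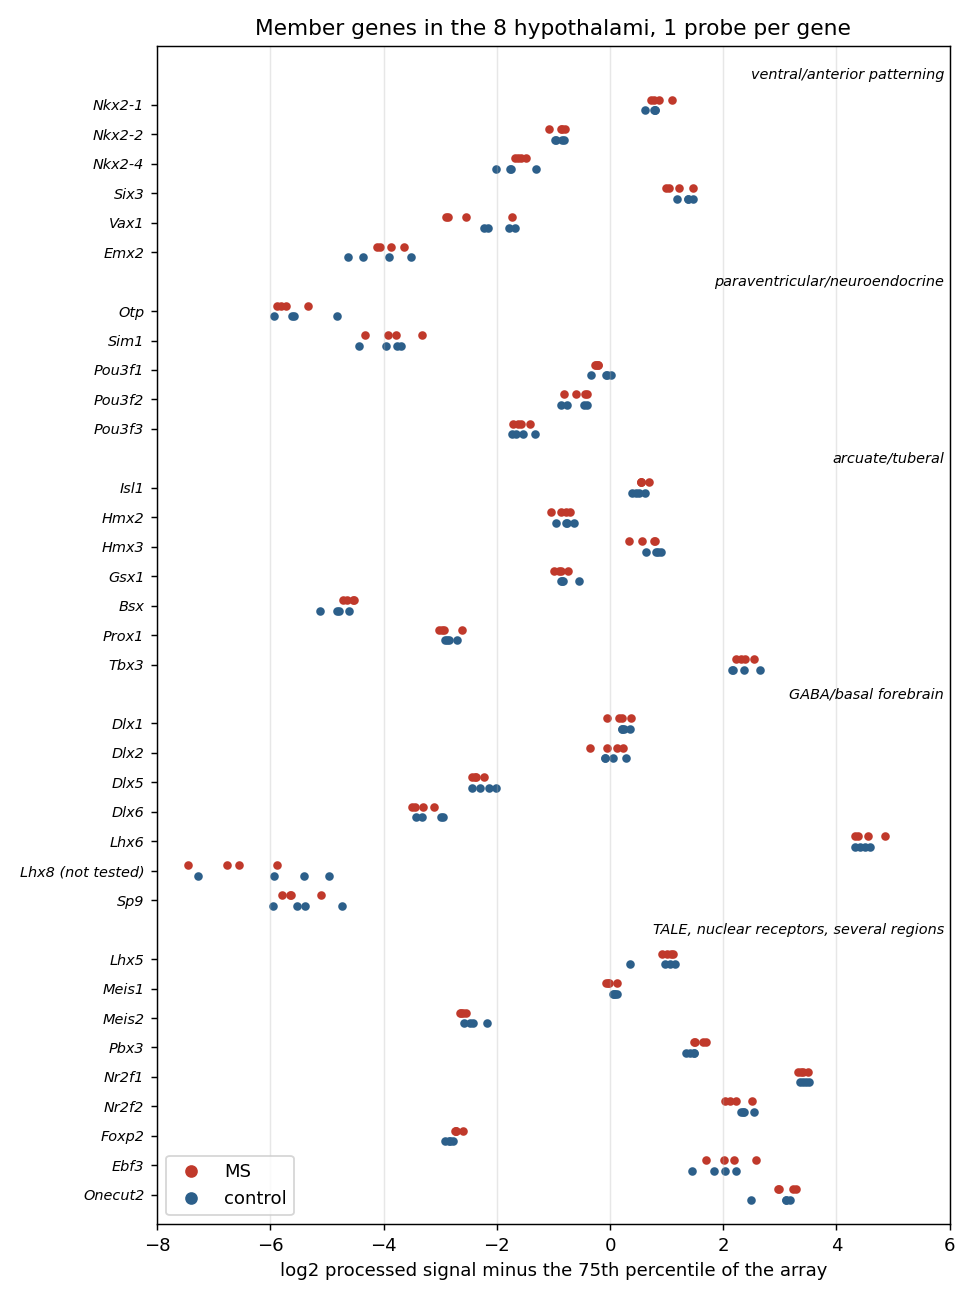
Log2 signal (processed signal minus the 75th percentile of the array, horizontal axis) of the 34 members in each of the 4 MS (red, upper row of each gene) and 4 control mice (blue, lower row), grouped by role. The groups overlap in 32 of the 33 tested members and are apart only in Foxp2, and distances between genes along the axis do not compare their expression.

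No member passed the test between MS and control mice in the fit over all probes (limma, adjusted p between 0.989 and 0.997), against 0 of 37314 probes (0%) called in all. At an unadjusted p under 0.05 there was 1 member of 33, Foxp2, against 1270 probes (3.4%). Groups that did not overlap were found for the same 1 member, with MS mice higher, against 756 probes (2.03%, made up of 0.788% higher and 1.24% lower in MS mice), so that the members stood near the background of all probes by both counts. Of the members, 15 lay above 0 and 18 below, and 50.5% of all probes lay below. The median difference, MS minus control, was -0.033 on the log2 scale over the members and -0.001 over all probes. The 95% confidence interval excluded a change of 2-fold in either direction for 32 of the 33 members, all except Vax1, and of 1.5-fold for 27.

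**Figure D2:**
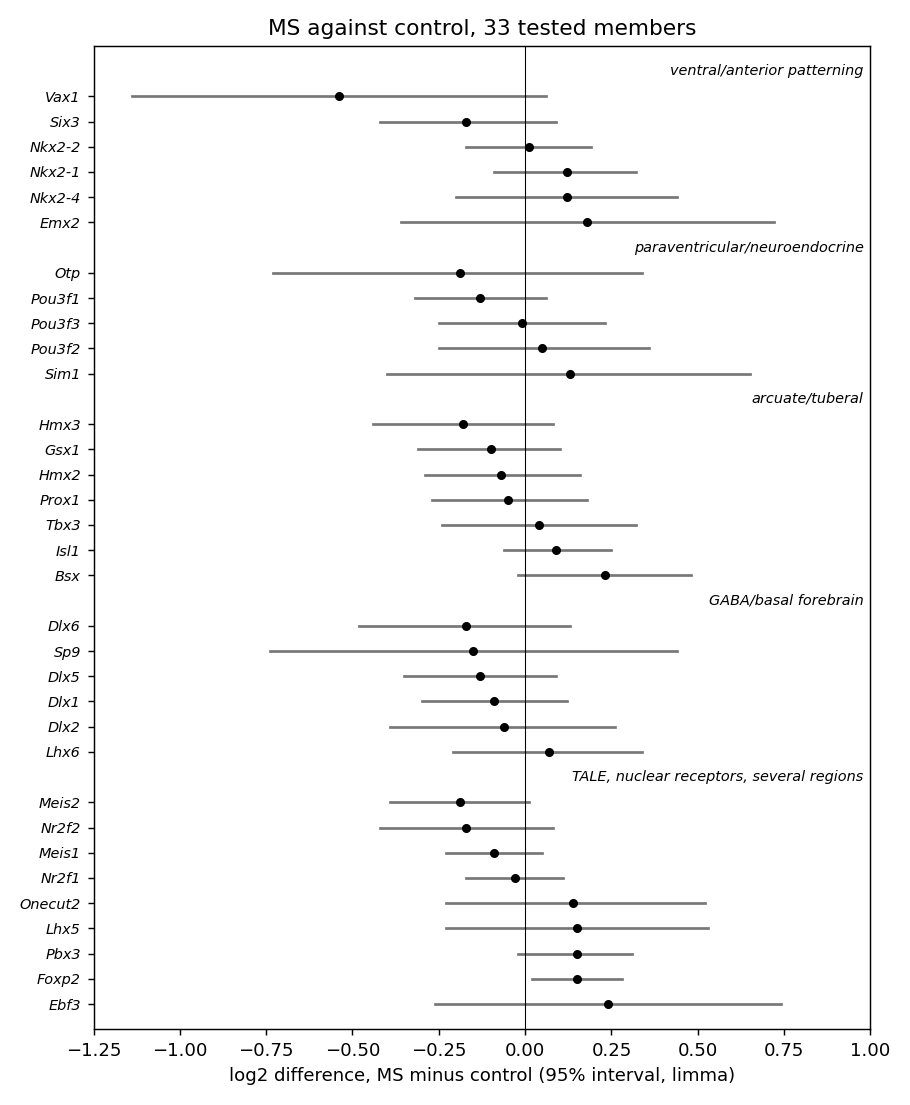
Log2 difference of MS minus control mice for the 33 tested members (points) with the 95% confidence interval from limma (lines), grouped by role and ordered within each group. All intervals but that of Foxp2 include 0, and Vax1, at -0.54, lies farthest from it.

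Of the factors of ventral and anterior patterning, 4 of the 6 tested lay above 0 and 2 below, with a median difference of 0.06 and 0 called. Vax1, which takes part in the formation of the optic nerve and of the anterior hypothalamus, had the lowest difference of all members. It has 2 probes next to each other on chromosome 19 of mm9, at chr19:59240745-59240804 and chr19:59240677-59240736 on the minus strand. The first 30 of their 60 bases are shown because both probes put the mice in nearly the same order, and capitals mark AATAAA, the hexamer of polyadenylation signals, searched on the strand of the probe.
Vax1 probe A_55_P2048833: tgacgatggctggttcgctagccgggaatt
Vax1 probe A_55_P2116880: ttcgagccttactcccggaccaacAATAAA
The hexamer stood in the first 30 bases of 2 of the 48 member probes (4.17%) and of 834 of the 55681 probes (1.5%).

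The log2 signal of Vax1 was -2.90, -1.73, -2.86 and -2.54 in MS 5.3, 7.1, 7.2 and 7.6, against -2.16, -1.79, -1.67 and -2.23 in control 6.2, 8.2, 8.4 and 8.5. MS 5.3, 7.2 and 7.6 were below every control mouse, whereas MS 7.1 lay within the control group. The difference was -0.54 (SE 0.26, limma, unadjusted p = 0.0730, adjusted p = 0.989). The other probe gave -0.45 (SE 0.22), with an r of 0.98 between the probes over the 8 mice. Within row 1 of the slide, which held MS 5.3 and 7.2, the difference was -1.14, and within row 2 it was 0.06. Without MS 7.1 it was -0.80 (limma, unadjusted p = 0.00171, adjusted p = 0.962). The hypothalamic marker sum was 320, 472, 293 and 313 in MS 5.3, 7.1, 7.2 and 7.6, and 394, 401, 460 and 348 in control 6.2, 8.2, 8.4 and 8.5. MS 7.1 had the highest sum, but in a sum of linear signals the bright peptide genes Avp, Oxt, Pmch and Hcrt weigh most. Hcrt had a log2 signal of 3.46, 5.94, 3.54 and 5.62 in MS 5.3, 7.1, 7.2 and 7.6, against 5.51 to 6.65 in control mice. In the same order, Pmch had 6.02, 6.56, 5.97 and 6.16, against 6.53 to 6.76. Nr5a1 had 2.33, 2.51, 2.05 and 2.46 against 2.4 to 2.79, and Fezf1 had 1.17, 1.31, 0.96 and 0.93 against 1.03 to 1.34. Rax had 0.51, 0.51, 0.7 and 0.69, against 0.26 to 0.66. MS 7.1 was the highest MS mouse for Hcrt, Pmch, Avp, Oxt, Nr5a1 and Fezf1, but not for Rax or Agrp. The 5 markers of the mammillary region, at the posterior end of the hypothalamus, summed to 10.3, 7.5, 9.93 and 8.94 in these MS mice and to 8.07, 7.93, 7.16 and 5.92 in the control mice. The part of these markers and sums in the result was not tested.

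**Figure D3:**
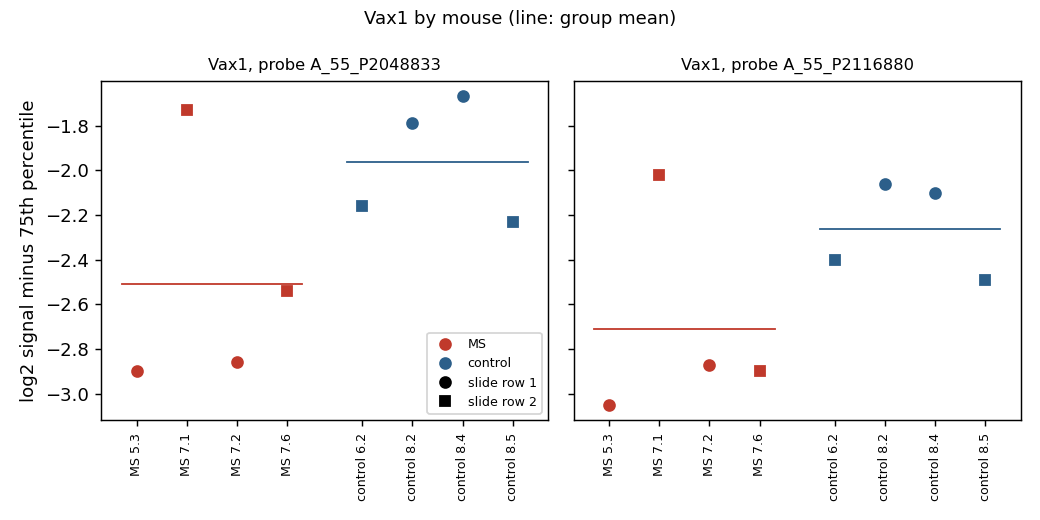
Log2 signal of the 2 probes of Vax1 (vertical axis) in each mouse, with MS mice in red, control mice in blue, circles for row 1 and squares for row 2 of the slide, and a line at each group mean. In both probes MS 5.3, 7.2 and 7.6 lie below all control mice and MS 7.1 among or above them.

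Emx2, a homeodomain factor of the dorsal telencephalon that also acts in the diencephalon, lies 298 kb from Vax1 by its probes and was among the most variable members. Its log2 signal was -3.64, -4.12, -3.87 and -4.06 in MS 5.3, 7.1, 7.2 and 7.6, against -4.37, -3.90, -4.62 and -3.51 in control 6.2, 8.2, 8.4 and 8.5. The control group held both the highest and the lowest mouse. The difference was 0.18 (SE 0.23). Within row 1 it was 0.50 and within row 2 it was -0.15. Without control 8.4 it was 0.01 and without control 8.5 it was 0.37. Nkx2-1, the main factor of the basal hypothalamus, had 1.09, 0.78, 0.86 and 0.72 in MS 5.3, 7.1, 7.2 and 7.6, against 0.79, 0.78, 0.62 and 0.79 in control 6.2, 8.2, 8.4 and 8.5. MS 5.3 was the highest mouse, the groups overlapped, and the difference was 0.12 (SE 0.09), or 0.04 without MS 5.3. Nkx2-2 and Nkx2-4, of the same family, differed by 0.01 and 0.12, and Six3, which keeps the anterior forebrain from taking a posterior fate, by -0.17. The probes of Nkx2-2 did not move together over the mice (r = -0.10) and gave differences of 0.01 and 0.09.

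In the paraventricular and neuroendocrine lineage, 2 of the 5 tested factors lay above 0 and 3 below, with a median of -0.01 and 0 called. Otp, which is needed for the oxytocin, vasopressin, CRH and TRH neurons, was above background on 4 arrays only. Its log2 signal was -5.72, -5.33, -5.82 and -5.88 in MS 5.3, 7.1, 7.2 and 7.6, against -5.58, -5.93, -4.83 and -5.62 in control 6.2, 8.2, 8.4 and 8.5. Control 8.4 alone stood high, the difference was -0.19 (SE 0.23), and without control 8.4 it was 0.03. Sim1, a bHLH-PAS factor that acts with Otp in the same neurons, had -3.78, -3.92, -3.33 and -4.32 in MS 5.3, 7.1, 7.2 and 7.6, against -3.96, -3.70, -3.76 and -4.43 in control 6.2, 8.2, 8.4 and 8.5. The lowest mice of both groups were on row 2, MS 7.6 and control 8.5, and the difference was 0.13 (SE 0.23). It was -0.04 without MS 7.2 and -0.03 without control 8.5. Otp and Sim1 did not vary together (r = 0.02, exact permutation test, adjusted p = 0.960, n = 8 mice).

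The POU factors Pou3f1, Pou3f2 and Pou3f3, also called Oct6, Brn2 and Brn1, had their lowest value in control 8.5 with the probe that stands for each gene. Brn2 is needed for the oxytocin, vasopressin and CRH neurons. For Pou3f1, the log2 signal was -0.22, -0.21, -0.25 and -0.26 in MS 5.3, 7.1, 7.2 and 7.6, against -0.07, -0.05, 0.02 and -0.34 in control 6.2, 8.2, 8.4 and 8.5. The MS mice lay close together and below all control mice but 8.5, and the difference was -0.13 (SE 0.08, limma, unadjusted p = 0.151). Pou3f2 had -0.44, -0.41, -0.60 and -0.82 in MS 5.3, 7.1, 7.2 and 7.6, against -0.76, -0.40, -0.46 and -0.86 in control 6.2, 8.2, 8.4 and 8.5. Its 3 probes correlated at r between 0.61 and 0.90 over the mice, and their differences ran from -0.01 to 0.12. Pou3f3 differed by -0.01 (SE 0.10).

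Among the factors of the arcuate and tuberal lineage, 3 of the 7 tested lay above 0 and 4 below, with a median of -0.05 and 0 called. Bsx is a homeodomain factor of the AgRP and NPY neurons of the arcuate nucleus. It had a log2 signal of -4.65, -4.53, -4.54 and -4.71 in MS 5.3, 7.1, 7.2 and 7.6, against -4.82, -4.79, -5.13 and -4.61 in control 6.2, 8.2, 8.4 and 8.5. Control 8.5 was the only control mouse within the MS range, and the difference was 0.23 (SE 0.11, limma, unadjusted p = 0.0691, adjusted p = 0.989). Without control 8.4 it was 0.13. Bsx and Agrp, one of its targets, did not vary together over the mice (r = 0.03, exact permutation test, adjusted p = 0.960, n = 8).

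Isl1, a LIM homeodomain factor of POMC and other arcuate neurons, was among the steadiest members, with an SD of 0.09 over the 8 mice. Its log2 signal was 0.68, 0.55, 0.55 and 0.55 in MS 5.3, 7.1, 7.2 and 7.6, against 0.46, 0.51, 0.38 and 0.61 in control 6.2, 8.2, 8.4 and 8.5. Only control 8.5 reached the range of the MS mice, and the difference was 0.09 (SE 0.07, limma, unadjusted p = 0.199). Hmx2 and Hmx3, which lie 11.6 kb apart by their probes and are needed for the GHRH neurons, differed by -0.07 and -0.18. The log2 signal of Hmx3 was 0.78, 0.79, 0.34 and 0.57 in MS 5.3, 7.1, 7.2 and 7.6, against 0.63, 0.84, 0.81 and 0.90 in control 6.2, 8.2, 8.4 and 8.5. MS 7.2 was the lowest mouse for both genes, and without it the difference of Hmx3 was -0.08. The genes correlated at r = 0.68 over the 8 mice (exact permutation test, adjusted p = 0.283) and at -0.13 without MS 7.2 and control 6.2. Gsx1, also of the GHRH lineage, Prox1 and Tbx3, a T-box factor of POMC neurons, differed by -0.10, -0.05 and 0.04.

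In the GABA and basal forebrain lineage, 5 of the 6 tested factors lay below 0 and 1 above, with a median of -0.11 and 0 called. The Dlx genes drive the differentiation of GABA neurons in the forebrain and lie in pairs that share enhancers. Dlx1 and Dlx2, whose probes are 9.995 kb apart, differed by -0.09 and -0.06. Dlx5 and Dlx6 are 12.9 kb apart by probes at chr6:6828063-6828122 on the minus strand and chr6:6815092-6815151 on the plus strand of mm9, and they differed by -0.13 and -0.17. The first 30 bases of both probes, which hold no AATAAA, are shown because these genes varied together.
Dlx5 probe A_51_P261051: gtgttgtgctggtttagaaatcagaaagaa
Dlx6 probe A_52_P556908: acagtgatcgaaaacggggaaatcaggttc
Dlx5 had a log2 signal of -2.38, -2.23, -2.36 and -2.43 in MS 5.3, 7.1, 7.2 and 7.6, against -2.43, -2.02, -2.30 and -2.13 in control 6.2, 8.2, 8.4 and 8.5. The values of Dlx6 in the same order were -3.50, -3.11, -3.44 and -3.31 in MS mice, against -3.42, -2.95, -3.32 and -2.99 in control mice. Control 8.2, control 8.5 and MS 7.1 were the 3 highest mice for both genes.

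Pearson's r between Dlx5 and Dlx6 was 0.92 over the 8 mice (exact permutation test, p = 0.00179, adjusted p = 0.0161 over 18 pairs of genes), and Spearman's rho was 0.74 (exact p = 0.0458, adjusted p = 0.206). The r was 0.89 after the mean of each group was removed (adjusted p = 0.0424, permutation test). That test shuffled values across the groups and took no account of the removed means, so that its p is only approximate. Without the 2 mice farthest from the median, control 8.2 and 8.5, the r over the remaining 6 mice was 0.71 (exact permutation test, p = 0.101) and no longer passed the test, and the rho was 0.37 (exact p = 0.497). The rho was 0.86 with group means removed, 0.93 with quantile normalization, 0.83 with normexp, another background correction, and 0.69 in the deposited log2 values. Each row of the slide held 4 mice, too few to test the relation within it. The r was 0.25 between Dlx1 and Dlx2 and 0.52 between Dlx1 and Dlx5, and neither passed the test (exact permutation test, adjusted p = 0.755 and 0.482, n = 8).

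The other pair that passed was Lhx8 and Isl1, with an r of -0.90 (exact permutation test, p = 0.00174, adjusted p = 0.0161, n = 8) and a rho of -0.93 (exact p = 0.00223, adjusted p = 0.0402). Lhx8 had -7.45, -6.76, -6.55 and -5.89 in MS 5.3, 7.1, 7.2 and 7.6, against -5.93, -5.40, -4.96 and -7.27 in control 6.2, 8.2, 8.4 and 8.5. Only control 8.2 and 8.4 were well above background, so that 6 of the 8 points are values at background and no fold change is given. The r was -0.75 without control 8.4 and MS 5.3 (exact permutation test, p = 0.0722) and -0.55 with normexp (exact permutation test, p = 0.167). Of the 5 markers of basal forebrain cholinergic neurons, 4 were tested, and their summed signal was 1.04 to 1.33 in MS mice and 1.07 to 1.28 in control mice. Lhx8 and the choline transporter Slc5a7 correlated at r = 0.42 (exact permutation test, adjusted p = 0.522, n = 8).

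**Figure D4:**
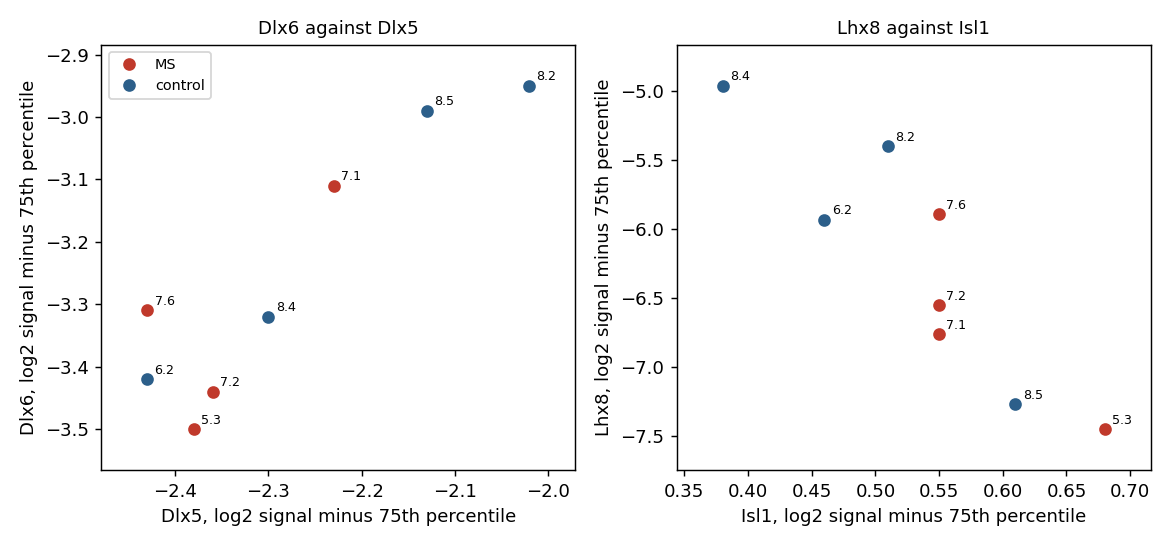
Log2 signal of Dlx6 against Dlx5 (left) and of Lhx8 against Isl1 (right) in the 8 mice, with MS mice in red, control mice in blue and the number of each mouse beside its point. Dlx5 and Dlx6 rise together, with control 8.2 and 8.5 at the upper end, and in the right panel only control 8.2 and 8.4 have Lhx8 above background.

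Lhx6, a LIM homeodomain factor of GABA neurons born in Nkx2-1 progenitors, differed by 0.07 (SE 0.12). Its 3 probes lie on the minus strand of chromosome 2, at chr2:35937644-35937703, chr2:35937470-35937529 and chr2:35958379-35958438 of mm9. The first 2 start 174 bases apart and yet did not vary together (r = 0.00), and the third was above background on no array. Their first 30 bases are given with AATAAA in capitals, which overlaps itself in the second.
Lhx6 probe A_55_P2005903: aatgtacaggtcatcgaggctatttattta
Lhx6 probe A_55_P2094158: tcttatttgtgtAATAAATAAAgttaatgc
Lhx6 probe A_55_P2094149: ggcagcagaatagctgctacatcaagaaca
With the first probe, the log2 signal was 4.56, 4.32, 4.38 and 4.85 in MS 5.3, 7.1, 7.2 and 7.6, against 4.42, 4.5, 4.59 and 4.33 in control 6.2, 8.2, 8.4 and 8.5. The second gave -3.15, -3.60, -2.95 and -3.33 in these MS mice, against -3.28, -3.12, -3.40 and -3.31 in the control mice. MS 7.6 was highest with the first probe and MS 7.2 with the second.

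Sp9, a zinc finger factor of striatal and other GABA neurons, had -5.64, -5.80, -5.11 and -5.66 in MS 5.3, 7.1, 7.2 and 7.6, against -5.53, -4.74, -5.39 and -5.96 in control 6.2, 8.2, 8.4 and 8.5. Control 8.2 was the highest and control 8.5 the lowest mouse. The difference was -0.15 (SE 0.26), and without control 8.2 it was 0.07. The 8 striatal markers summed to 24.4 to 24.8 in MS mice and 24.7 to 25.9 in control mice, with control 8.2 alone within the range of the MS mice. Rgs9, with a mean log2 signal of 3.94 and an SD of 0.03 over the mice, weighed most in this sum. Drd1, Drd2 and Adora2a, at means of -2.90, -3.62 and -2.86, added little to it. The part of the striatal markers in the values of the GABA factors was not tested.

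The last group, of TALE cofactors, nuclear receptors and factors of several regions, had 5 of 9 above 0 and 4 below, with a median of 0.14 and 0 called. Without control 8.5, the lowest mouse for 5 of these factors, the median was -0.02. Foxp2, a forkhead factor of several projection neuron types, was the member with the smallest p. Its probe at chr6:15391821-15391880 on the plus strand gave -2.73, -2.72, -2.60 and -2.72 in MS 5.3, 7.1, 7.2 and 7.6, against -2.78, -2.84, -2.82 and -2.91 in control 6.2, 8.2, 8.4 and 8.5. The lowest MS mouse, 5.3, and the highest control mouse, 6.2, were close to each other, and the difference was 0.15 (SE 0.06, limma, unadjusted p = 0.0329, adjusted p = 0.989). An exact permutation test over the 70 assignments of the mice gave p = 0.0286 (two-sided), the smallest it can give. Any groups of this size that do not overlap give this p, as for 756 of all probes (2.03%), so that it adds nothing to the lack of overlap. Within the rows of the slide the difference was 0.17 and 0.12. In the deposited log2 values it was 0.09, with overlapping groups (limma, unadjusted p = 0.140), and with a trended and robust variance its unadjusted p was 0.111 (limma). In both settings the 1 member at an unadjusted p under 0.05 was Pbx3 instead.

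The other probes of Foxp2 did not all share this direction. Their first 30 bases are shown, with no AATAAA in any, since the result depends on which of them is read, and they stand in the order of their positions.
Foxp2 probe A_55_P2113399: ggagactgtattcatagtaaattgagcatg
Foxp2 probe A_55_P2113384: cctttgctttcacacagcatagcttataat
Foxp2 probe A_55_P2113391: tcagagcccaaaccatctcccaaacctgta
Foxp2 probe A_51_P233753: actgtggacgaagtcgaataccagaagcga
Foxp2 probe A_66_P130601: cagaaaagaggggtgtacatttttctttag
The probe A_55_P2113391, at chr6:15355616-15355675, gave -5.26, -5.47, -5.44 and -5.13 in MS 5.3, 7.1, 7.2 and 7.6, against -5.15, -4.97, -4.76 and -5.05 in control 6.2, 8.2, 8.4 and 8.5. MS 7.6 was the only MS mouse within the control range, and the difference was -0.34 (SE 0.11, limma, unadjusted p = 0.0134, adjusted p = 0.989). This probe was above background on 6 arrays, and with the normexp background correction its difference was 0.01. The probes A_51_P233753 and A_55_P2113384 differed by 0.21 (SE 0.15) and 0.02 (SE 0.15). The tested probes correlated at r between -0.74 and 0.49 over the 8 mice. These probes lie up to 244633 bases apart, and annotation of their transcripts on mm9 was not used here.

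**Figure D5:**
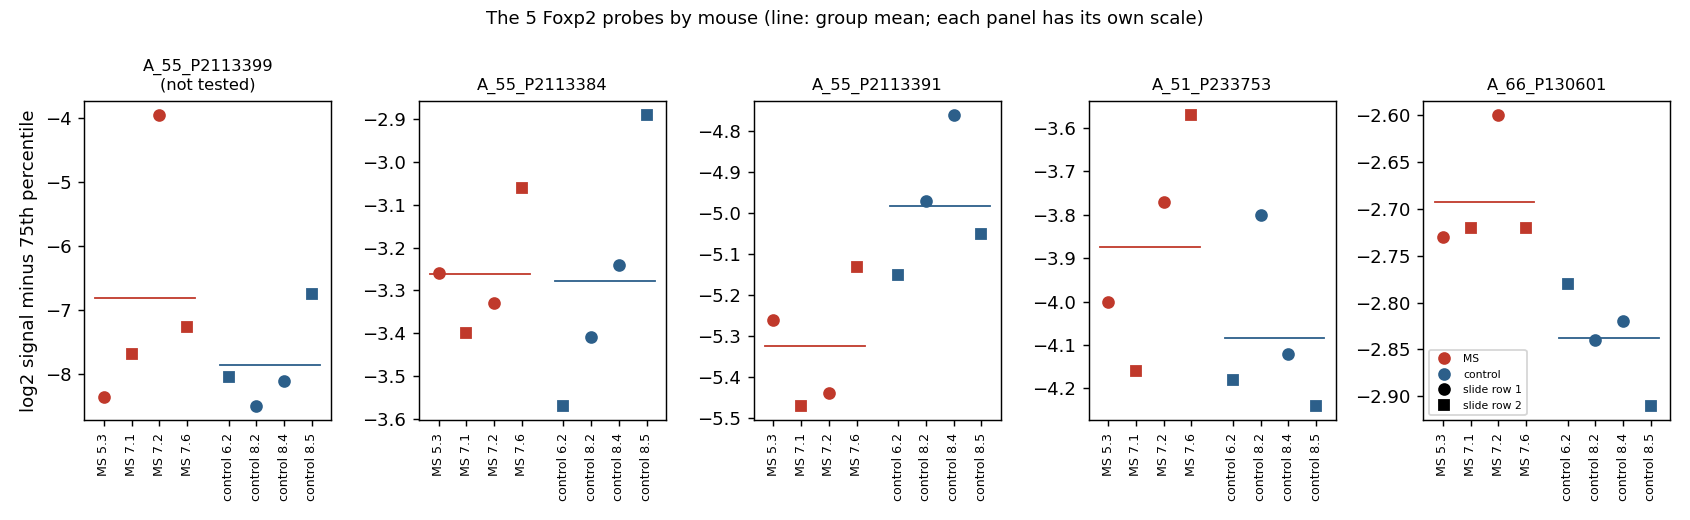
Log2 signal of the 5 probes of Foxp2 in each mouse, in the order of their positions and each on its own scale, with MS mice in red, control mice in blue, circles for row 1 and squares for row 2 of the slide, and a line at each group mean. The last probe is higher in all MS mice, the middle one is lower in 3 of 4, and the first is above background only in MS 7.2.

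Pbx3 and Meis2 encode TALE homeodomain proteins, which bind DNA together with Hox and other homeodomain factors. Pbx3 had 1.48, 1.5, 1.64 and 1.70 in MS 5.3, 7.1, 7.2 and 7.6, against 1.49, 1.41, 1.49 and 1.35 in control 6.2, 8.2, 8.4 and 8.5. Only MS 5.3 lay within the control range, by a margin so small that the groups were apart when the percentile was taken over spots, and the difference was 0.15 (SE 0.07, limma, unadjusted p = 0.0703). Its other probe gave 0.05 (SE 0.08). Meis2 had -2.54, -2.63, -2.60 and -2.65 in MS 5.3, 7.1, 7.2 and 7.6, against -2.42, -2.47, -2.17 and -2.58 in control 6.2, 8.2, 8.4 and 8.5. The MS mice were below all control mice but 8.5, and the difference was -0.19 (SE 0.09, limma, unadjusted p = 0.0618), or -0.11 without control 8.4. Meis1 was steadier, with an SD of 0.08 over the 8 mice. Its log2 signal was -0.02, -0.03, -0.08 and 0.12 in MS 5.3, 7.1, 7.2 and 7.6, against 0.09, 0.07, 0.05 and 0.13 in control 6.2, 8.2, 8.4 and 8.5, and the difference was -0.09 (SE 0.06).

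The orphan nuclear receptors Nr2f1 and Nr2f2, or COUP-TFI and COUP-TFII, set regional identity in the forebrain. Nr2f1 had the smallest SD of the members, 0.07, with 3.40, 3.49, 3.38 and 3.32 in MS 5.3, 7.1, 7.2 and 7.6, against 3.35, 3.51, 3.46 and 3.41 in control 6.2, 8.2, 8.4 and 8.5. Its probes differed by -0.03 and 0.03, both within their error. Nr2f2 had 2.12, 2.50, 2.03 and 2.23 in MS 5.3, 7.1, 7.2 and 7.6, against 2.35, 2.37, 2.31 and 2.55 in control 6.2, 8.2, 8.4 and 8.5. All MS mice but 7.1 were below the control mice, as for Vax1, and the difference was -0.17 (SE 0.11, limma, unadjusted p = 0.155).

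Ebf3, an HLH factor of the COE family, had 2.19, 1.69, 2.58 and 2.02 in MS 5.3, 7.1, 7.2 and 7.6, against 1.83, 2.22, 2.03 and 1.44 in control 6.2, 8.2, 8.4 and 8.5. MS 7.2 was the highest and control 8.5 the lowest mouse, and the difference was 0.24 (SE 0.22), the largest of the positive ones. Without MS 7.2 it was 0.08 and without control 8.5 it was 0.09. Lhx5, a LIM homeodomain factor of the mammillary region, and Onecut2 differed by 0.15 (SE 0.16) and 0.14 (SE 0.16). Control 8.5 was lowest for both, with 0.35 against 0.97 to 1.15 in the other control mice for Lhx5. Without control 8.5 both differed by -0.02. Within row 1 the differences were -0.03 for Lhx5 and -0.14 for Onecut2, and within row 2 they were 0.34 and 0.42. The mammillary marker sum was also lowest in control 8.5. Lhx5 and Foxb1, a forkhead factor of the mammillary body, correlated at r = 0.57 over the 8 mice (exact permutation test, adjusted p = 0.459) and at 0.00 without control 8.5 and MS 7.6.

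The members varied somewhat more between mice than the probes of the array as a whole. The SD over the 8 mice had a median of 0.17 over the 33 tested members and 0.14 over all probes, and 21 members lay above that median and 8 above the upper quartile of all probes, 0.22. The members with the highest SD were Vax1 with 0.49, Sp9 with 0.39, Otp and Emx2 with 0.36, and Ebf3 and Sim1 with 0.35, of which Sp9 and Otp were near background. Emx2 and Sim1 were also dim, at mean log2 signals of -4.01 and -3.90, and Ebf3, at 2.00, was not. Members and all probes were not compared at like signal, so that dim probes may account for part of the higher SD, which was not tested. By the probe that stands for each gene, control 8.5 was the lowest mouse for 10 members, among them Sim1 and the POU factors. It was the highest for 8, among them Six3, Hmx3 and Gsx1. Over all probes it was lowest for 22.3% and highest for 15.0%. Control 8.2 was highest for 9 of the 33 tested members, against 10.7% of all probes, and MS 7.2 was lowest for 8, against 12.3%. MS 7.6 was highest for only 2 members, against 23.5% of all probes, and control 6.2 for 0, against 9.94%.

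In the wider families of these factors, 34 of 40 listed relatives were tested and 0 were called, with 0 higher and 3 lower at an unadjusted p under 0.05, against 1% of all probes higher and 2.4% lower. The smallest p was that of Foxp1, a relative of Foxp2. It had 2.21, 2.22, 2.25 and 2.22 in MS 5.3, 7.1, 7.2 and 7.6, against 2.39, 2.32, 2.43 and 2.44 in control 6.2, 8.2, 8.4 and 8.5, with a difference of -0.17 (SE 0.05, limma, unadjusted p = 0.0104). The groups did not overlap.

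Of 18 genes of the neurons that these factors specify, such as the hypothalamic peptides and the GABA enzymes, 17 were tested and 0 called, with 1 higher and 1 lower at an unadjusted p under 0.05. The smallest p was that of the peptide somatostatin, Sst, with 5.41, 5.3, 5.20 and 5.28 in MS 5.3, 7.1, 7.2 and 7.6, against 5.59, 5.41, 5.51 and 5.52 in control 6.2, 8.2, 8.4 and 8.5. Its difference was -0.21 (SE 0.07, limma, unadjusted p = 0.0119). Otp and vasopressin, Avp, correlated at r = 0.58 (exact permutation test, adjusted p = 0.459, n = 8), and at 0.77 without control 8.4 and MS 7.1.

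In the lists of cell types and neighboring tissues, 0 genes were called. At an unadjusted p under 0.05 (limma), 2 hypothalamic, 1 striatal and 1 pituitary marker were lower in MS mice, against 2.4% of all probes. At the same limit 1 thalamic and 1 mammillary marker were higher, against 1% of all probes. The genes with the smallest p in 7 of these lists were Pmch for the hypothalamus, with a difference of -0.46, Pde10a for the striatum with -0.18, Gbx2 for the thalamus with 0.37, Lamp5 for the cortex with 0.16, Foxb1 for the mammillary region with 0.38, Tshb for the pituitary with -2.19 and Folr1 for the choroid plexus with -0.42. Slc17a7, the glutamate transporter of cortical neurons, was above background on no array, and was singled out after its values were seen. All 5 mammillary markers lay above 0, whereas all 4 pituitary markers and 7 of the 8 striatal markers lay below 0. Over all probes, 50.5% lay below 0.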

How the data were processed

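HT arrays of 8 male mice, 1 per mouse, were grouped by the sample labels. The authors deposited the output of Agilent Feature Extraction 10.10.1.1, in which the processed intensity of a spot is background-subtracted and corrected for gradients, and a table of log2 values whose normalization was not stated. The headers place probes on mm9 and name another array design than the paper's methods. In R 4.3.3, log2 processed intensities were averaged over the spots of a probe, without control and outlier spots (55681 probes from 59305 spots), and the 75th percentile of the array over probes was subtracted. The percentile over spots was run first, and the one over probes was kept after both had been seen. Probes that stood well above background on 4 or more arrays were tested with limma 3.58.1 (lmFit and eBayes, two-sided, Benjamini-Hochberg over all 37314 tested probes at 0.05). Exact permutation tests over the mice were run for 18 pairs of genes. The scripts were tested on simulated data. Members and lists were chosen with earlier results of these data known. Values per mouse are given for the 5 members of smallest p in each direction, those without overlap, the 6 of largest and 3 of smallest SD, those with probes of opposite sign, pairs with an absolute r of at least 0.8, and members not measured on 4 arrays. Lhx6 was added after its values were seen. The value of 1 listed gene is not reported here. Alternatives were other scalings, background corrections, filters, variance models, blocks and sets of mice. The meaning of the first number in a mouse's name is unknown, so that mice may share a litter or cage, and the number of arrays limits the precision.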

Additional observations from a re-analysis of the deposited data

Results flagged for a closer look

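In 66 groups of 4 mice (33 tested members in MS and in control mice), 5 held a mouse whose gap to its nearest neighbor took up most of the range of the group (Dixon's test at 95%), where chance flags about 1 in 20. In MS mice these were MS 5.3 for Isl1, at 0.68 against 0.55 in each of the other MS mice, and MS 7.2 for Foxp2, at -2.60 against -2.73 to -2.72. In control mice they were control 8.4 for Nkx2-1, at 0.62 against 0.78 to 0.79, control 8.5 for Gsx1, at -0.55 against -0.87 to -0.83, and control 8.5 for Onecut2, at 2.49 against 3.11 to 3.18.

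A signal was also seen in a probe outside the tested ones. The probe A_55_P2113399 of Foxp2, at chr6:15147188-15147247 of mm9, had a log2 signal of -3.95 in MS 7.2, where it was well above background, against -8.36, -7.69 and -7.27 in MS 5.3, 7.1 and 7.6 and between -8.5 and -6.75 in the control mice, where it was not. It rests on 1 array.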

How the results depend on the processing

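No member was called under any of the 21 alternatives, and the median difference of the members stayed between -0.053 and 0.019 when each mouse was left out in turn. Members at an unadjusted p under 0.05, 1 as reported, were 2 with quantile normalization or median scaling, 0 with normexp or without a filter on dim probes, 7 with the first number in a mouse's name as a random block (estimated correlation -0.19), 4 within row 1 of the slide and 0 within row 2, and 0 to 4 with each mouse left out (4 without control 8.5, 3 without MS 5.3, 0 without control 8.2, control 8.4 or MS 7.2). Members without overlap, 1 as reported, were 0 in the deposited log2 table, 2 with the percentile taken over spots (an alternative chosen after seeing the data), and 1 to 6 with each mouse left out (6 without control 8.5, 5 without MS 5.3), against 3.64 to 5.42% of all probes. With 2 mice a group they were 20 within row 1 and 10 within row 2, against 34.4 and 30.1% of all probes. Over all probes, 496 were at an unadjusted p under 0.05 with normexp, 809 with 1 probe per gene, 3370 with the random block and 1980 within row 1, and 1 probe was called with the random block and 1 within row 2. Each first number held mice of 1 group only. A negative correlation within such blocks lowers the SE of the difference between groups, so that the higher counts with the random block are no added evidence. The median of the TALE, nuclear receptor and several-region group was -0.09 within row 1 and -0.02 to 0.16 with each mouse left out.

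Pairs past the test, 2 as reported, were 0 with the authors' deposited values, with normexp and without the 2 farthest mice, and 1 with group means removed, where the p is only approximate. The r of Dlx5 and Dlx6 was 0.79 in the deposited table, 0.88 with normexp and 0.71 without the 2 mice. That of Lhx8 and Isl1 was -0.87 with group means removed, -0.55 with normexp and -0.75 without the 2 mice. The r of Otp and Avp was -0.40 with normexp and that of Hmx2 and Hmx3 was -0.13 without the 2 mice.

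Some differences changed sign. With normexp they were 0.05 for Sp9, 0.02 for Otp and 0.01 for the Foxp2 probe A_55_P2113391, and with the deposited values 0.01 for Sp9. Within row 2 they were -0.04 for Nkx2-1, 0.06 for Vax1, 0.01 for Sp9, -0.15 for Emx2, -0.04 for Nkx2-4 and 0.03 for Nr2f1, and within row 1 -0.09 for Pou3f2, -0.03 for Lhx5, -0.14 for Onecut2 and 0.04 for Gsx1. With each mouse left out they ran from -0.33 to 0.07 for Sp9 (0.07 without control 8.2), from -0.34 to 0.03 for Otp (0.03 without control 8.4), from -0.04 to 0.29 for Sim1 (-0.04 without MS 7.2, -0.03 without control 8.5) and from -0.03 to 0.14 for Pou3f2 (-0.03 without control 8.5), and both Lhx5 and Onecut2 were at -0.02 without control 8.5. The cause was not tested. The deposited table lacks the probes of Lhx8, Otp and Bsx. No paired analysis was possible because MS and control mice share no number in the labels.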
